A study of Mus musculus with 39 samples.

Results

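The 47 genes described here encode the urea cycle, the breakdown of amino acids and the methionine cycle, and they were taken from a named list of these pathways. Earlier results of these data were known when the list was chosen. They fall into 10 roles, from the 6 genes of the urea cycle and its activator to the 7 genes of branched-chain amino acid and propionate breakdown. All 47 were found among the 55416 genes of the count table, and all 47 passed the filter on low counts. The table holds liver RNA-seq counts from 39 male C57BL/6NTac mice, either CD163 knockout (CD163tm1(KOMP)Vlcg) or wildtype littermates from crosses of heterozygous parents. From 6 weeks of age the mice had free access for 8 weeks to chow with plain drinking water, or to Western diet with fructose in the water. The 4 groups were wildtype on chow (n = 5), knockout on chow (n = 4), wildtype on Western diet (n = 15) and knockout on Western diet (n = 15). Diet and fructose water were given together, so their parts cannot be told apart. The knockout is not limited to 1 cell type, and CD163, a scavenger receptor for haemoglobin bound to haptoglobin, is known as a macrophage protein.

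Amino acids that are not built into protein lose their nitrogen in the liver, mostly by transfer to glutamate and release as ammonia, and the urea cycle joins that nitrogen with bicarbonate into urea. The carbon skeletons then enter the citric acid cycle, glucose synthesis or ketone body synthesis. Hepatocytes around the portal vein carry most of the urea cycle, and many of these enzymes are known to rise with fasting, glucagon, glucocorticoids or a protein-rich diet.

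Library totals ranged from 8578865 to 30438808 counts with a median of 14573193. The lowest count of any member in any library was 61, and 45 of the 47 members had at least 100 counts in every library. Cd163 was at 0 to 0.746 CPM (counts scaled to library size) in the knockout livers and at 2.59 to 15.8 CPM in the wildtype livers, so the genotypes did not overlap. Of the 39 libraries, 4 had diet genes at the level of the other diet: wildtype chow A, knockout chow D, wildtype Western A and knockout Western M. On a scale from the mean of the other chow libraries (0) to the mean of the other Western diet libraries (1), built from 601 diet-dependent genes without the amino acid genes, these libraries lay at 0.93, 0.98, 0.20 and 0.12, in the order given. Their mean level of 23 cholesterol synthesis genes went the same way, at 5.43, 5.45, 7.20 and 7.21 on the log2 CPM scale, against 6.73 to 7.25 in the other chow and 4.87 to 6.39 in the other Western diet libraries. Cholesterol synthesis genes were not kept out of the 601, so this level is no separate evidence. Whether their diet labels are right could not be settled from the labels, so every value as labelled may hold livers of the other diet. Each diet result is therefore given for all 39 libraries as labelled and for the 35 others. Leaving out libraries because their diet genes look like the other diet must widen diet differences by construction, so the counts from 35 libraries are a description and no independent evidence. All 7 hepatocyte markers were detected in every group, with a summed level of 53324 to 92674 CPM over the 39 libraries. In whole liver, fewer cells of a type and less RNA per cell cannot be told apart.

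No member passed the test between knockout and wildtype livers, on either diet. On Western diet 0 members passed an adjusted p of 0.05 (edgeR quasi-likelihood test with Benjamini-Hochberg adjustment over 15296 genes), where 0.00654% of all tested genes did. At an unadjusted p under 0.05 there were 2 members. DESeq2 and limma voom also called 0, beside 0.0196% and 0.00654% of all genes. Prodh, the first enzyme of proline breakdown, ranged from 283 to 451 CPM with a median of 333 in wildtype and from 151 to 408.9 CPM with a median of 283 in knockout. The groups overlapped from 283 to 408.9 CPM, and the knockout median lay near the lowest wildtype level. The log2 fold change was -0.22 with a standard error (SE) of 0.10 (edgeR, p = 0.0264, adjusted p = 0.943). Gnmt, which disposes of excess methyl groups, gave -0.22 (SE 0.11) and Asl, which splits argininosuccinate into arginine and fumarate, gave -0.16 (SE 0.09), both with an edgeR adjusted p of 0.943. Over the 47 members 17 values were above and 30 below 0, with a median of -0.03, and 53.5% of all genes were above 0.

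On chow 0 members passed between the genotypes, again beside 0.00654% of all tested genes, and 0 were at an unadjusted p under 0.05. DESeq2 and limma voom called 0 as well, beside 0.0131% and 0% of genes. The smallest p-values belonged to Sdsl, a serine dehydratase-like enzyme, Tat, which starts tyrosine breakdown, and Asl, with log2 fold changes of -0.35 (SE 0.21), -0.54 (SE 0.33) and -0.25 (SE 0.16). Tat was at 1459, 3028, 1546, 852 and 2304 CPM in the 5 wildtype chow livers and at 1320, 1827, 991 and 922 CPM in the 4 knockout chow livers. The groups overlapped, and both the highest and the lowest level were found in wildtype livers. In the 35 libraries 1 member had a lower range in knockout chow livers than in wildtype chow livers without overlap, beside 1.93% of all tested genes, and 0 had a higher one, beside 2.93%. This was Gcsh, the lipoyl carrier of the glycine cleavage system, with a log2 fold change of -0.26 (SE 0.12, edgeR adjusted p = 0.91). Of the 47 members 18 values were above and 29 below 0 with 39 libraries (all genes 50.9% above) and 5 above and 42 below in the 35 (median -0.14, all genes 46.0% above), where knockout chow holds 3 livers.

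Whether the diet difference itself depended on genotype was tested by the interaction term. In this test 0 members passed, and 0% of all genes did. At an unadjusted p under 0.05 there was 1 member, and DESeq2 and limma voom called 0. That member was Prodh, whose diet difference was 0.42 lower in knockout than in wildtype on the log2 scale (interaction -0.42, SE 0.20, edgeR p = 0.0456, adjusted p = 0.9998). The next were Ftcd, which ends histidine breakdown, at -0.21 (SE 0.15) and Gcsh at 0.16 (SE 0.12). The 35 libraries gave 0 calls for both genotype comparisons (0.00647% of all genes each) and the interaction (0%), so the diet values of the genotypes below were not shown to differ for any member. Interaction values were above 0 for 29 of 47 members with 39 libraries and for 39 of 47 with 35 (median 0.12), beside 50.8% and 54.6% of all genes. This tally and that of the genotypes on chow share the same chow livers. The p-values throughout measure the spread between mice of a group.

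With all 39 libraries 1 member differed between the diets in wildtype mice: Agxt, lower on Western diet. That is 2.13% of the members against 0.615% of all tested genes called lower, and 0 members were higher against 0.771%. In both directions together 1.39% of genes were called. At an unadjusted p under 0.05 there were 15 members (31.9%) and 17.2% of all genes. In knockout mice 0 members passed in either direction, where 0.00654% of genes were called lower and 0% higher. There 12 members (25.5%) were at an unadjusted p under 0.05, beside 19.2% of all genes. DESeq2 called 3 members in wildtype, with Bckdha higher and Agxt and Hal lower, beside 3.37% of all genes, and 0 in knockout, beside 1.5%. Limma voom called 9 members in wildtype (6.83% of all genes) and 6 in knockout (5.36%).

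In the 35 libraries 11 members changed in wildtype and 13 in knockout. In wildtype mice 5 of 47 members (10.6%) rose on Western diet against 4.26% of the 15461 genes tested, and 6 (12.8%) fell against 4.4% (8.66% of genes in all). In knockout mice 11 members (23.4%) rose against 9.69% and 2 (4.26%) fell against 7.5%. The 5 that rose in wildtype, Kmo, Bckdha, Pcca, Pccb and Shmt1, were also among the 11 in knockout (100% and 45.5% of the lists). Of those that fell, Agxt and Got1 were shared (33.3% of the wildtype and 100% of the knockout list). The diet comparisons of the 2 genotypes use different mice throughout. Over all genes the shared share was 73.0% of the wildtype and 32.1% of the knockout list for rises, and 61.9% and 36.3% for falls. The median over the 47 members was 0.01 in wildtype and 0.08 in knockout, beside 0.00 and 0.02 over all genes, with 25 and 30 of 47 values above 0. Summed red blood cell markers (4 genes) also moved with diet, from 78.5 to 117 CPM on chow and from 95.2 to 249 CPM on Western diet over the 39 libraries, and 2 of the 4 (Alas2 and Hbb-bt) rose in knockout in the 35 libraries. Among markers of other liver cells in the same fit, Clec4g and Ehd3 (2 of 6 of sinusoidal endothelium) fell in knockout by 0.56 and by 0.58, Cd5l (1 of 6 of Kupffer cells) rose in knockout by 1.24, and Lrat (1 of 6 of stellate cells) rose by 0.67 in wildtype and by 1.03 in knockout. The part of these markers in the diet results was not tested.

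**Figure D1:**
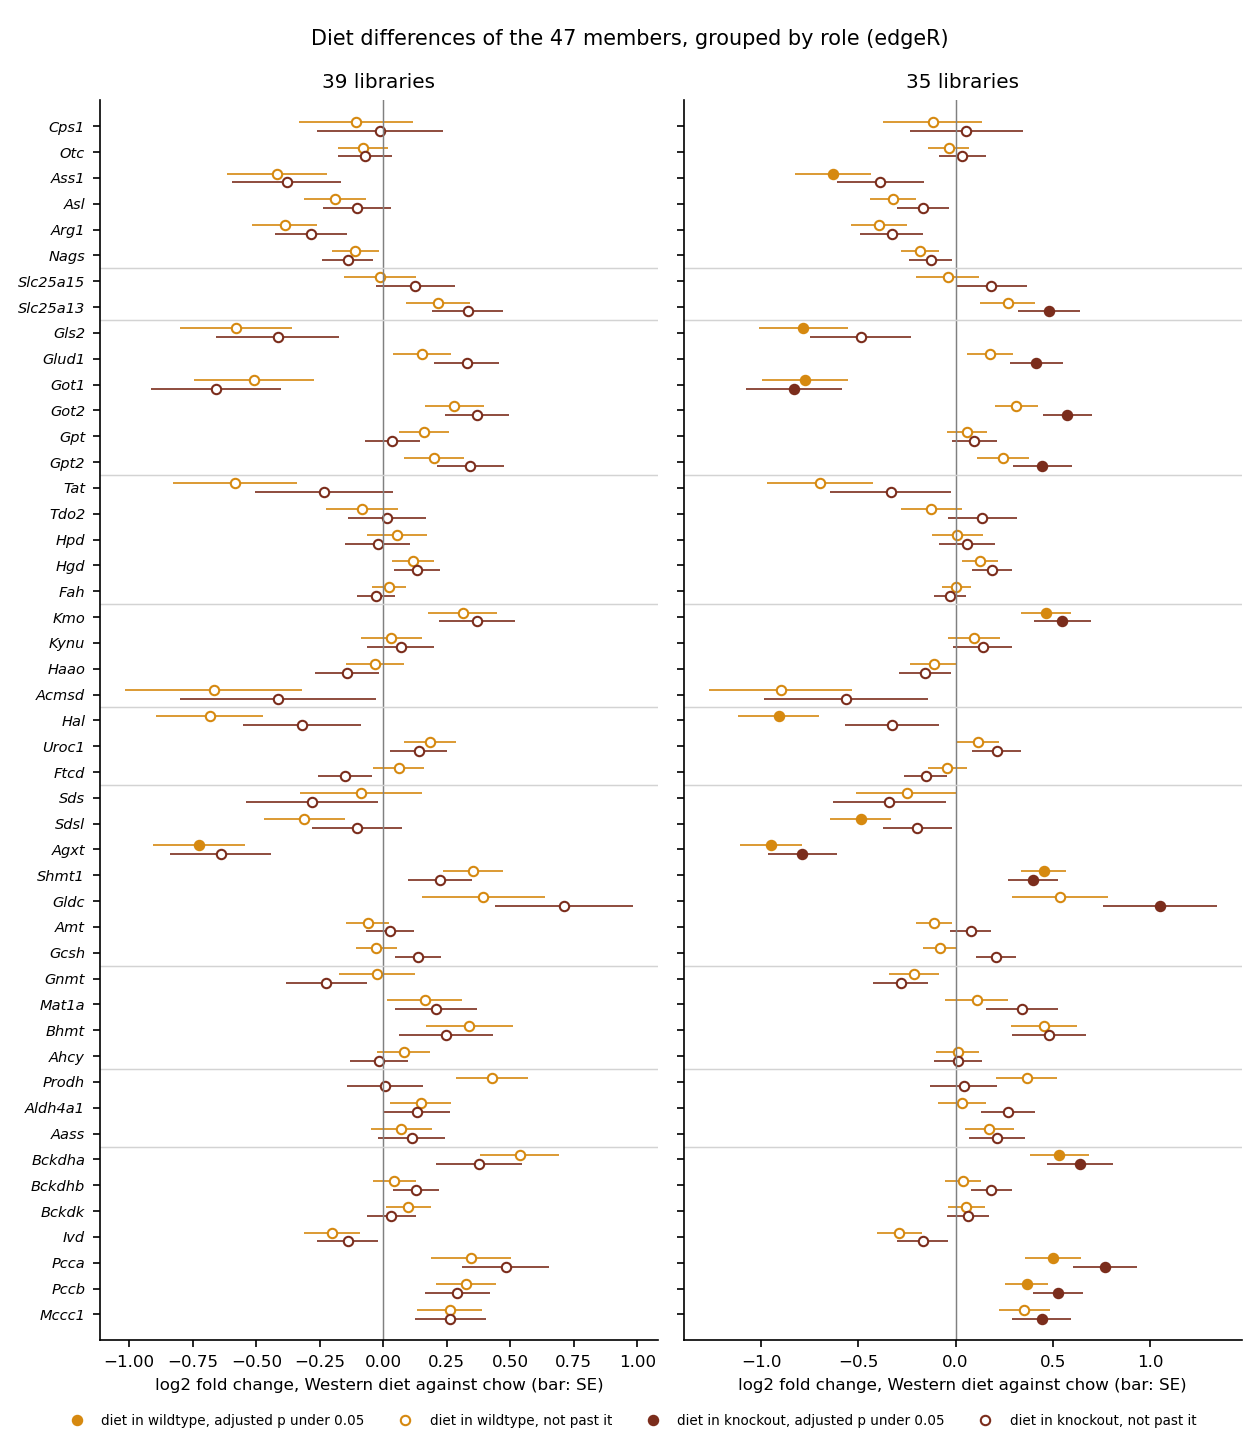
Log2 fold change of Western diet against chow for each of the 47 members (vertical axis, grouped by role), in wildtype (orange) and knockout (dark red), with bars of 1 SE, from the fit of all 39 libraries (left) and of the 35 others (right). Filled points passed an edgeR adjusted p of 0.05: Agxt alone at left, and 11 wildtype and 13 knockout points at right.

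Few differences between the groups passed for the 6 genes of the urea cycle. With 39 libraries all 6 had negative diet values in both genotypes and 0 passed. At an unadjusted p under 0.05 (edgeR) there were 2 of 6 in wildtype, beside 17.2% of all genes. In knockout there was 1 of 6, beside 19.2%. Without the 4 libraries 1 of 6 fell in wildtype, Ass1, beside 4.4% of all genes. In knockout 0 passed, beside 17.2% of all genes. Cps1 makes carbamoyl phosphate from ammonia in the mitochondrion and is the entry of the cycle. It was at 1872, 2797, 1991, 1419 and 1992 CPM in wildtype chow A to E and at 1943, 1408, 1766 and 1791 CPM in knockout chow A to D. On Western diet it ranged from 927 to 2963 CPM (median 1854) in wildtype and from 970 to 3729 CPM (median 1480) in knockout. Every chow liver lay inside the Western diet range of its genotype, and the highest level belonged to knockout Western E. The log2 fold change with diet was -0.11 (SE 0.22) in wildtype and -0.01 (SE 0.25) in knockout, and the sign of both changed with the processing.

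Otc, which joins carbamoyl phosphate to ornithine, varied little. Chow livers spanned 326 to 444 CPM (wildtype) and 348 to 468 CPM (knockout), and Western diet livers 287 to 472 CPM and 312 to 516 CPM. The diet values were -0.08 (SE 0.10) and -0.07 (SE 0.11). All 4 ranges overlapped.

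Ass1 makes argininosuccinate from citrulline and aspartate, the step at which the second nitrogen enters. Wildtype chow livers A to E had 989, 2818, 2204, 1406 and 1404 CPM, and knockout chow livers A to D had 2051, 1396, 1442 and 1603 CPM. Western diet livers ranged from 752 to 2121 CPM (median 1385) in wildtype and from 781 to 1830 CPM (median 1133) in knockout. The lowest chow value and the highest wildtype Western value both came from libraries at the other diet's place. As labelled the diet value was -0.42 in wildtype (SE 0.20, edgeR adjusted p = 0.265). In the 35 libraries it was -0.63 (SE 0.20, edgeR adjusted p = 0.0396) in wildtype and -0.39 (SE 0.22, edgeR adjusted p = 0.233) in knockout. The wildtype call ended without either of wildtype chow B and C, or without wildtype Western B, F, H or I, with a range of -0.76 to -0.40 over the 35 fits that left out 1 library each.

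Arg1, which releases urea and renews ornithine, had a chow range of 914 to 1703 CPM in wildtype and 996 to 1284 CPM in knockout, and Western diet medians of 959 and 913 CPM. Its diet values were -0.39 (SE 0.13, edgeR adjusted p = 0.107) and -0.28 (SE 0.14, edgeR adjusted p = 0.258), and -0.39 and -0.33 without the 4 libraries. Asl gave -0.19 (SE 0.12) and -0.10 (SE 0.13), from chow ranges of 386 to 736 and 385 to 514 CPM. Nags, whose product N-acetylglutamate switches Cps1 on, gave -0.11 (SE 0.09) and -0.14 (SE 0.10), within 66.0 to 108 CPM in every liver. None of these passed the edgeR test in either fit, while limma voom called Arg1 lower in wildtype with all 39 libraries.

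**Figure D2:**
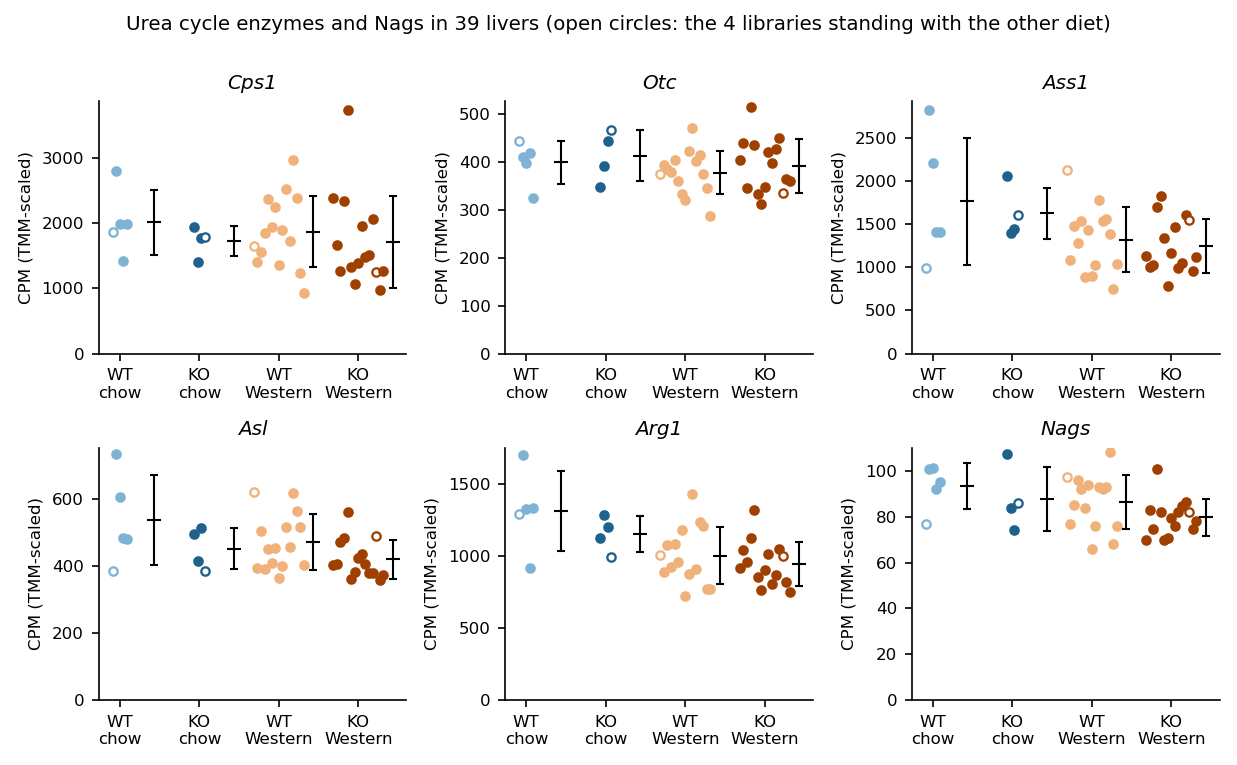
Level in CPM (vertical axes, from 0) of the 6 urea cycle genes in each of the 39 livers, by group, with the group mean and SD beside the points. Open circles mark wildtype chow A, knockout chow D, wildtype Western A and knockout Western M. In each of the 6 panels the Western diet points overlap the chow points.

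The cycle is fed by 2 mitochondrial carriers. Slc25a15, which exchanges ornithine and citrulline, showed diet values of -0.01 (SE 0.14) in wildtype and 0.13 (SE 0.16) in knockout. Slc25a13, or citrin, exports the aspartate that Ass1 uses. It was at 172, 177, 151, 144 and 137 CPM in wildtype chow and at 151, 113, 151 and 183 CPM in knockout chow, with Western medians of 179 and 188 CPM. The highest knockout chow value was that of library D. Slc25a13 rose in knockout in the 35 libraries by 0.48 (SE 0.16, edgeR adjusted p = 0.0341), and gave 0.27 (SE 0.14, edgeR adjusted p = 0.241) in wildtype. The knockout call was kept in 29 of 35 leave-one-out fits. It ended without any of the remaining knockout chow livers (A, B or C), or without knockout Western A, E or L.

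The enzymes that move nitrogen through glutamate went in both directions. Got1, the cytosolic aspartate aminotransferase, fell in both genotypes without the 4 libraries, and Got2, its mitochondrial form, rose in knockout. Got1 was at 81.2, 241, 191, 195 and 197 CPM in wildtype chow A to E and at 339, 159, 195 and 124 CPM in knockout chow A to D. On Western diet it ranged from 63.3 to 225 CPM (median 127) in wildtype and from 66.2 to 207 CPM (median 135) in knockout. The lowest chow liver in each genotype was the one that stood with Western diet, and without the 4 libraries the wildtype ranges no longer touched (191 and above on chow, 188 and below on Western diet). As labelled Got1 gave -0.51 (SE 0.24, edgeR adjusted p = 0.262) in wildtype and -0.66 (SE 0.26, edgeR adjusted p = 0.169) in knockout. Without the 4 libraries it gave -0.78 (SE 0.22, edgeR adjusted p = 0.0253) and -0.83 (SE 0.25, edgeR adjusted p = 0.0188). Knockout chow A, at 339 CPM, carried much of the second value: without it the value was -0.44 and the call ended (edgeR adjusted p = 0.316). In wildtype the call ended without chow B, C or D.

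Got2 was at 253 to 285 CPM in the 5 wildtype chow livers and at 261, 186, 227 and 327 CPM in knockout chow A to D. Its Western diet range was 242 to 394 CPM (median 320) in wildtype and 238 to 444 CPM (median 324) in knockout. Without knockout chow D and knockout Western M the knockout ranges did not touch, although both bounds rounded to 261 CPM. The diet value in knockout was 0.37 (SE 0.13, edgeR adjusted p = 0.14) as labelled and 0.58 (SE 0.13, edgeR adjusted p = 0.00241) without the 4 libraries, lost without knockout chow B. In wildtype it was 0.31 (SE 0.11, edgeR adjusted p = 0.0696) in the 35 libraries. The log2 ratio of Got2 to Got1, which compares the 2 forms within a liver, had medians of 0.40 and 0.23 in wildtype and knockout chow and of 1.47 and 1.33 on Western diet. Without the 4 libraries the chow values reached at most 0.45 and the Western diet values began at 0.64, so the ratio separated the diets in those 35 livers. Got1 and Got2 were paired with their opposite calls known, and in the other 5 ratios computed between members the diets overlapped over those livers. That of Glud1 to Gls2 reached 2.15 on chow and began at 1.90 on Western diet. That of Gpt2 to Gpt, the other cytosolic and mitochondrial pair, ran from -0.65 to -0.24 on chow and from -0.76 to 0.28 on Western diet.

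The promoter window of Got1 is shown because it holds the most CCAAT boxes of the 4 windows printed here, on either strand. It runs from 250 bases before to 50 after the start in RefSeq (GRCm38.p6, chr19:43524556-43524855, minus strand). Capitals mark CCAAT or its reverse complement, and AGGTCA, the core letters bound by many nuclear receptors.
Got1 promoter: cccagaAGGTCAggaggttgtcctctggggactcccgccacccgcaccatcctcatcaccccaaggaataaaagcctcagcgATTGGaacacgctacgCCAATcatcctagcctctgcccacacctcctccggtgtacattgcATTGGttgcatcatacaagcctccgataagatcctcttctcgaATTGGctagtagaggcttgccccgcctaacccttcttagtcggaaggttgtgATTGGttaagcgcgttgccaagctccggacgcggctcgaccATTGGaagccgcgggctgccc
It has 6 CCAAT matches and 1 AGGTCA match. CCAAT was found in 37.4% of all promoter windows and in 21 of the 38 member windows, and AGGTCA in 16.3% and in 15 of 38. These matches describe letters and do not show binding.

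Gls2, the liver glutaminase that frees ammonia from glutamine, fell in wildtype in the 35 libraries. It was at 140, 420, 314, 225 and 363 CPM in wildtype chow A to E and at 112 to 259 CPM (median 212) in wildtype Western livers. Knockout chow livers had 321, 263, 268 and 231 CPM and knockout Western livers 119 to 392 CPM (median 174). The ranges overlapped in both genotypes. The wildtype value was -0.58 (SE 0.22, edgeR adjusted p = 0.167) as labelled and -0.78 (SE 0.23, edgeR adjusted p = 0.028) without the 4 libraries, lost without wildtype chow B, C or E. In knockout it was -0.49 (SE 0.26, edgeR adjusted p = 0.19).

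Glud1, glutamate dehydrogenase, and Gpt2, the mitochondrial alanine aminotransferase, rose in knockout in the 35 libraries. Glud1 was at 887, 729, 976 and 944 CPM in knockout chow and at 775 to 1486 CPM (median 1141) in knockout Western livers, and gave 0.42 (SE 0.14, edgeR adjusted p = 0.0313). Gpt2 was at 306, 339, 289 and 369 CPM and at 302 to 515 CPM (median 414.2), and gave 0.44 (SE 0.15, edgeR adjusted p = 0.039). Both calls were lost in leave-one-out fits without knockout chow A or B, among others. That of Gpt2 was also lost without knockout chow C, so it needed every remaining knockout chow liver. Gpt, the cytosolic form, gave 0.06 (SE 0.10) and 0.10 (SE 0.12) and passed in neither genotype.

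Among the genes of serine, glycine and glyoxylate, Agxt was the only member that passed the test as labelled. Agxt turns glyoxylate into glycine, which keeps glyoxylate from becoming oxalate, and the same enzyme can use serine. It was at 147, 459, 377, 338 and 346 CPM in wildtype chow A to E and at 431.4, 272, 267 and 226 CPM in knockout chow A to D. On Western diet it ranged from 121 to 273 CPM (median 202) in wildtype and from 108 to 300 CPM (median 189) in knockout. The wildtype chow livers other than A lay above every wildtype Western liver, while only knockout chow A lay above every knockout Western liver. Its diet value was -0.73 on the log2 scale (SE 0.18, edgeR adjusted p = 0.0419) in wildtype and -0.64 (SE 0.20, edgeR adjusted p = 0.124) in knockout. The wildtype call sat close to the threshold. It ended with the library number as a covariate (edgeR adjusted p = 0.127), with no filter on low counts (0.0997) and without wildtype chow B, C, D or E or wildtype Western B, C, F, H, I or L, while the value stayed between -0.73 and -0.58 there.

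Without the 4 libraries Agxt fell by 0.95 on the log2 scale in wildtype (SE 0.16, edgeR adjusted p = 0.000153) and fell by 0.79 in knockout (SE 0.18, edgeR adjusted p = 0.00303). The ranges of the 2 diets then did not touch in either genotype. In wildtype 3 members lay wholly below chow (Agxt, Got1 and Hal) where 1.2% of all genes did, and 2 wholly above (Shmt1 and Prodh) where 1.3% did. In knockout Agxt alone lay wholly below, where 3.1% of genes did, and Got2 and Pcca wholly above, where 2.78% did. The wildtype call of Agxt held in 35 of 35 leave-one-out fits of those libraries and the knockout call in 34, ending without knockout chow A.

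The Agxt window is given for comparison with that of Got1, since both fell, and it holds none of the 4 motifs searched on both strands, which are spelled out beside the windows of Got1 and Shmt1. It lies at chr1:93134990-93135289 on the plus strand of GRCm38.p6.
Agxt promoter: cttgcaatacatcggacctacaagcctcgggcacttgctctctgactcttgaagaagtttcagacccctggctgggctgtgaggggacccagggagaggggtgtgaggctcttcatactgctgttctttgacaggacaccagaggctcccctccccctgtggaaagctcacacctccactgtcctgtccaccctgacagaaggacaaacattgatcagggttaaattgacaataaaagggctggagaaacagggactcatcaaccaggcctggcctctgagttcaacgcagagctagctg
The absence of a match says only that these letters are not in these 300 bases.

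Shmt1, the cytosolic enzyme that exchanges serine and glycine while loading folate with one-carbon units, went the other way. Wildtype chow livers A to E had 245, 185, 197, 199 and 196 CPM, and wildtype Western livers 200 to 338 CPM (median 258). Knockout chow livers had 207, 211, 168 and 270 CPM, and knockout Western livers 164 to 311 CPM (median 265). The highest chow level in each genotype was that of the library standing with Western diet. Shmt1 gave 0.35 (SE 0.12, edgeR adjusted p = 0.107) in wildtype as labelled, and in the 35 libraries it rose by 0.45 (SE 0.12, edgeR adjusted p = 0.0118) in wildtype and by 0.40 (SE 0.13, edgeR adjusted p = 0.0317) in knockout. The wildtype call held in 35 of 35 leave-one-out fits and the knockout call in 27. The knockout call ended without any of the remaining knockout chow livers (A, B or C). It also ended without knockout Western A, E, I or L or wildtype Western I.

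The Shmt1 window (chr11:60811216-60811515, minus strand, GRCm38.p6) is shown as that of a gene that rose, with CCAAT and TGACG matches in capitals on either strand.
Shmt1 promoter: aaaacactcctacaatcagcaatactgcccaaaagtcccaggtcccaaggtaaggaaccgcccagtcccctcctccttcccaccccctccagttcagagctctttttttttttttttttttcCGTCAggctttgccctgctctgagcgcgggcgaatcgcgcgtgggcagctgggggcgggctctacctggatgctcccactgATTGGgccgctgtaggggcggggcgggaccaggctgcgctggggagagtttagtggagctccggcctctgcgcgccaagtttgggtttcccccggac
It holds 1 CCAAT and 1 TGACG match. TGACG, the core letters of the cAMP response element, was found in 7 of the 38 member windows and in 20.8% of all windows, and TATAAA in 6 of 38 and in 13.6%.

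The glycine cleavage system was uneven. Gldc, its decarboxylase, was at 112, 81.1, 103 and 179 CPM in knockout chow A to D and at 102 to 402.3 CPM (median 161) in knockout Western livers. Knockout chow A, C and D lay inside the Western diet range. Gldc gave 0.71 (SE 0.27, edgeR adjusted p = 0.165) as labelled and rose by 1.05 (SE 0.29, edgeR adjusted p = 0.0128) without the 4 libraries, the largest rise of a member, lost without knockout chow B or C. In wildtype it gave 0.54 (SE 0.25, edgeR adjusted p = 0.18). The difference between the genotypes was 0.52 (SE 0.36) and did not pass. Amt and Gcsh, 2 other components of the same complex, gave 0.08 (SE 0.11) and 0.21 (SE 0.10) in knockout and -0.11 (SE 0.09) and -0.08 (SE 0.09) in wildtype.

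Serine can also be deaminated to pyruvate by Sds. It varied from 86.4 to 281 CPM among wildtype chow livers and gave diet values of -0.09 (SE 0.24) and -0.28 (SE 0.26). Its relative Sdsl was at 11.4, 26.7, 29.5, 19.5 and 24.6 CPM in wildtype chow A to E and at 12.8 to 25.1 CPM (median 17.4) in wildtype Western livers. The ranges overlapped, and the lowest chow liver was A. Sdsl fell by 0.49 in wildtype in the 35 libraries (SE 0.16, edgeR adjusted p = 0.0424), a call kept in 25 of 35 leave-one-out fits, and gave -0.20 (SE 0.18, edgeR adjusted p = 0.47) in knockout. The wildtype call ended without wildtype chow B, C or E, or without wildtype Western B, C, D, F, H, I or J. About 29.6% of the exon bases of Sds overlap genes on the opposite strand, so its counts are uncertain where strand was not used.

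Of the 3 histidine genes only the first moved. Hal turns histidine into urocanate, and it was at 145, 463, 350, 319 and 379 CPM in wildtype chow A to E and at 112 to 283 CPM (median 210) in wildtype Western livers. Apart from wildtype chow A, the chow livers lay above every wildtype Western liver. Knockout chow livers had 291, 247, 321 and 282 CPM and knockout Western livers 114 to 355 CPM (median 233), which overlapped. In wildtype Hal gave -0.68 (SE 0.21, edgeR adjusted p = 0.0809) as labelled and fell by 0.91 (SE 0.21, edgeR adjusted p = 0.00524) without the 4 libraries, in 35 of 35 leave-one-out fits. DESeq2 called it with all 39 libraries too (adjusted p = 0.0437). In knockout it gave -0.33 (SE 0.24, edgeR adjusted p = 0.362), and the difference between the genotypes, 0.58 (SE 0.33), did not pass (edgeR adjusted p = 0.999). Uroc1 and Ftcd, the next enzymes, gave values between -0.15 and 0.21 in the 35 libraries.

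**Figure D3:**
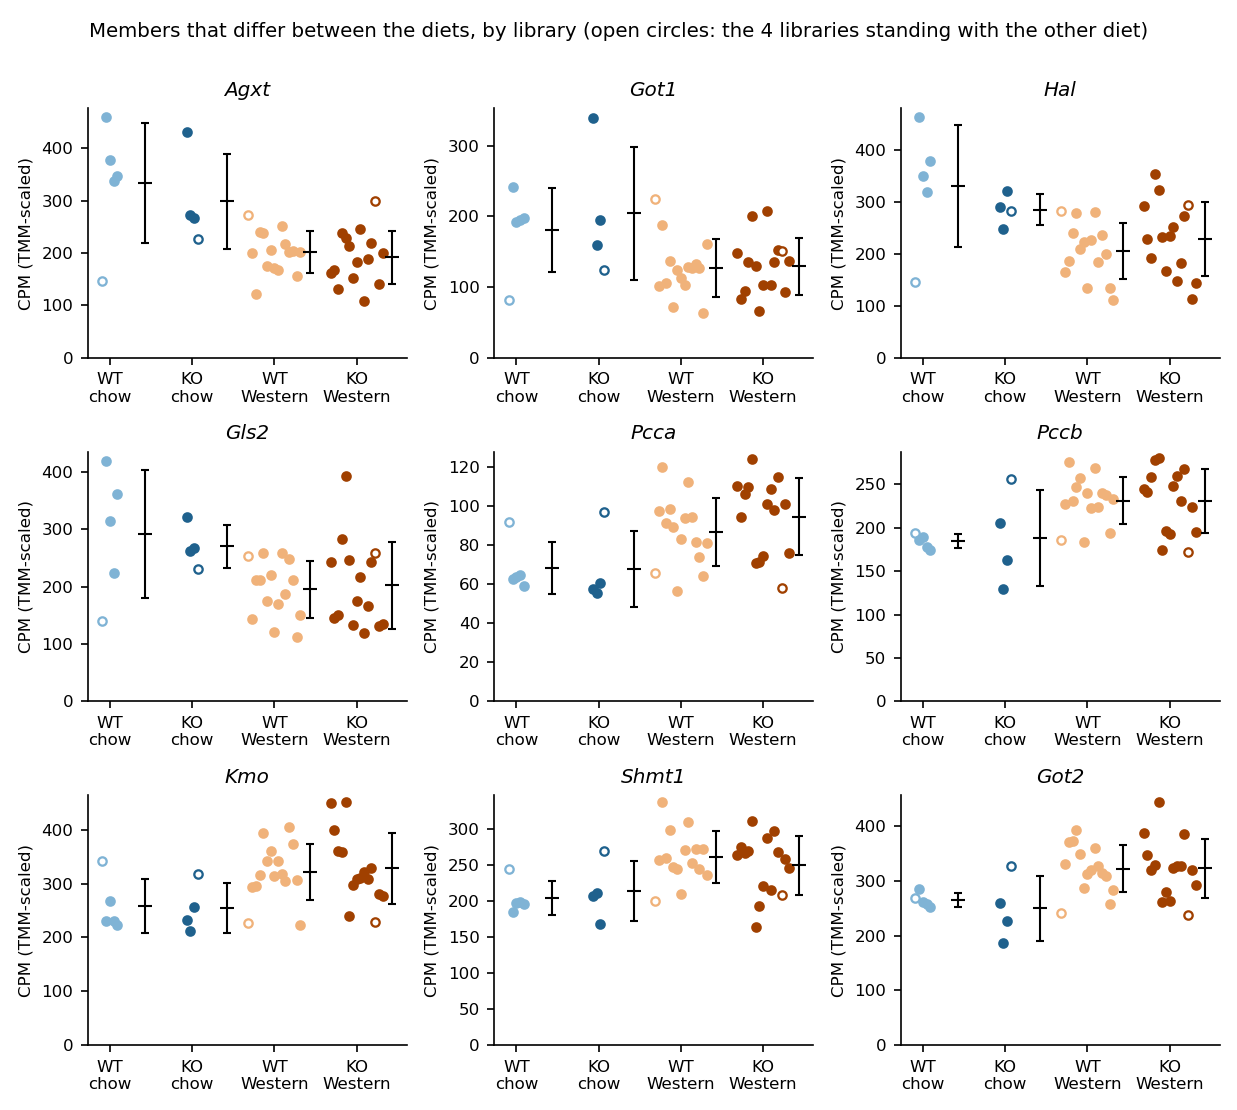
Level in CPM (vertical axes, from 0) of 9 members with diet calls in the 35 libraries, in each of the 39 livers by group, with the group mean and SD. Open circles mark wildtype chow A, knockout chow D, wildtype Western A and knockout Western M. In the Agxt panel the open chow circles, at 147 and 226 CPM, lie among the Western diet points.

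None of the 5 genes of tyrosine breakdown and tryptophan entry passed in either fit. Tat gave the largest values, -0.58 (SE 0.25, edgeR adjusted p = 0.207) in wildtype and -0.23 (SE 0.27, edgeR adjusted p = 0.655) in knockout, with Western diet medians of 1144 and 1148 CPM. Tdo2, Hpd, Hgd and Fah lay between -0.08 and 0.13 as labelled. Fah, the last enzyme of the tyrosine path, was the steadiest member on Western diet, with a coefficient of variation (SD over mean) of 5.82% in wildtype and 8.30% in knockout.

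Of the 4 genes of the kynurenine branch of tryptophan breakdown, Kmo rose in both genotypes in the 35 libraries. Kmo makes 3-hydroxykynurenine, and it was at 342, 231, 268, 231 and 222 CPM in wildtype chow A to E and at 232, 212, 256 and 319 CPM in knockout chow A to D. Western diet livers ranged from 224 to 405.1 CPM (median 316) and from 230 to 452 CPM (median 310). The highest chow livers were wildtype chow A and knockout chow D. The diet values were 0.31 (SE 0.14, edgeR adjusted p = 0.226) and 0.37 (SE 0.15, edgeR adjusted p = 0.183) as labelled, and 0.47 (SE 0.13, edgeR adjusted p = 0.0203) and 0.55 (SE 0.15, edgeR adjusted p = 0.00991) without the 4 libraries. The wildtype call ended without chow B, D or E, and the knockout call without chow B. Kynu and Haao gave values between -0.16 and 0.14 in the 35 libraries. Acmsd, which diverts the path away from NAD synthesis, was the most variable member in both wildtype groups. It ranged from 3.45 to 31.4 CPM among the wildtype Western livers (coefficient of variation 63.3%). Its diet values of -0.67 (SE 0.35) and -0.41 (SE 0.39) did not pass. In knockout chow Got1 varied most (46.3%), and in knockout Western livers Gldc did (42.5%).

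The 4 methionine cycle genes had no call in either fit. Bhmt, which remethylates homocysteine with betaine, gave 0.34 (SE 0.17) and 0.25 (SE 0.19) as labelled and 0.45 (SE 0.17, edgeR adjusted p = 0.0897) and 0.48 (SE 0.19, edgeR adjusted p = 0.0771) in the 35 libraries. Mat1a, the liver synthase of S-adenosylmethionine, gave 0.16 (SE 0.15) and 0.21 (SE 0.16). Gnmt gave -0.02 (SE 0.15) and -0.22 (SE 0.16) as labelled and -0.21 (SE 0.13) and -0.28 (SE 0.14) in the 35 libraries, where it was the one negative of the 4. Ahcy, which removes S-adenosylhomocysteine, lay at 0.08 (SE 0.10) and -0.02 (SE 0.11). Limma voom with quality weights called Bhmt higher in knockout with all 39 libraries.

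Proline and lysine breakdown gave positive values without a call in the fits of 39 and of 35 libraries. Prodh was at 218, 274, 279, 225 and 257 CPM in wildtype chow A to E, all below the 283 to 451 CPM of wildtype Western livers, so the labelled ranges did not touch, as for 0.111% of genes in that direction. No member lay wholly below chow as labelled, in wildtype (0.0588% of genes) or in knockout (0.0196%). For Prodh in wildtype the edgeR adjusted p was 0.108 with a log2 fold change of 0.43 (SE 0.14). A fit of the wildtype groups alone called Prodh higher (0.43, edgeR adjusted p = 0.0346), together with Bckdha, where 1.98% of genes were called. Knockout chow livers had 302, 355, 190 and 301 CPM, inside the 151 to 408.9 CPM of knockout Western livers, and gave 0.01 (SE 0.15). Aldh4a1, the next proline enzyme, gave 0.15 (SE 0.12) and 0.13 (SE 0.13), and 32.5% of its exon bases overlap another gene model. Aass, the entry of lysine breakdown, gave 0.07 (SE 0.12) and 0.11 (SE 0.13).

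The branched-chain and propionate genes held the most rises. In the 35 libraries 3 of 7 rose in wildtype and 4 of 7 in knockout, beside 4.26% and 9.69% of all genes. In both genotypes 6 of 7 values were positive. Pcca and Pccb encode the subunits of propionyl-CoA carboxylase, which takes up the ends of valine, isoleucine, methionine and odd-chain fatty acids. Pcca was at 92.2, 62.7, 64.0, 64.6 and 59.2 CPM in wildtype chow A to E and at 57.7, 55.7, 61.0 and 97.0 CPM in knockout chow A to D. Western diet livers ranged from 56.7 to 120 CPM (median 89.2) in wildtype and from 58.3 to 124 CPM (median 101) in knockout. Wildtype chow A and knockout chow D stood well above the other chow livers. As labelled Pcca gave 0.34 (SE 0.16, edgeR adjusted p = 0.247) and 0.48 (SE 0.17, edgeR adjusted p = 0.149). It rose without the 4 libraries by 0.50 (SE 0.14, edgeR adjusted p = 0.0243) in wildtype and by 0.77 (SE 0.16, edgeR adjusted p = 0.00193) in knockout. The knockout call held in 35 of 35 leave-one-out fits, and the wildtype call ended whenever 1 of the 4 remaining wildtype chow livers was left out.

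Pccb was at 194, 186, 189, 178 and 175 CPM in wildtype chow and at 206, 129, 163 and 257 CPM in knockout chow. Western diet medians were 233 and 241 CPM. It rose in the 35 libraries by 0.37 (SE 0.11, edgeR adjusted p = 0.0349) and by 0.53 (SE 0.13, edgeR adjusted p = 0.00501). The wildtype call held in 27 of 35 leave-one-out fits, ending without wildtype chow B, C, D or E or wildtype Western C, E, F or L, and the knockout call ended without knockout chow B. The Pccb window (chr9:101034835-101035134, minus strand, GRCm38.p6) is shown beside that of Shmt1 as another gene that rose in both genotypes, and it holds none of the 4 motifs.
Pccb promoter: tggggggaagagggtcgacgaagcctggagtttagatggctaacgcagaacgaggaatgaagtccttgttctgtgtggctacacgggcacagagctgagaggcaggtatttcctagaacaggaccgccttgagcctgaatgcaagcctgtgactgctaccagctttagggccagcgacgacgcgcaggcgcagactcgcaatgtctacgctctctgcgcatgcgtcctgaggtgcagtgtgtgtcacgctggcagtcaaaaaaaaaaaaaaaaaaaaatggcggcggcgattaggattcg

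Bckdha encodes the alpha subunit of the dehydrogenase that commits branched-chain keto acids to breakdown. It was at 54.2, 74.4, 61.5, 55.0 and 63.7 CPM in wildtype chow and at 83.8, 46.9, 51.2 and 99.7 CPM in knockout chow, with Western diet medians of 88.2 and 93.8 CPM. The Western diet range of wildtype, 55.5 to 113 CPM, overlapped that of chow. Bckdha gave 0.54 (SE 0.16, edgeR adjusted p = 0.0662) in wildtype as labelled, and rose in the 35 libraries by 0.53 (SE 0.15, edgeR adjusted p = 0.0231) in wildtype and by 0.64 (SE 0.17, edgeR adjusted p = 0.0102) in knockout. The wildtype call ended without chow C, D or E and the knockout call without chow B or C. Exons of B3gnt8 on the opposite strand cover 61.7% of the Bckdha exon bases, so reads of the 2 genes cannot be told apart if strand was not used. B3gnt8 itself was counted at 3.81 to 15.5 CPM, with diet values of -0.16 (SE 0.27) and -0.46 (SE 0.30) in the 35 libraries.

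Bckdhb, the beta subunit of the same enzyme, gave 0.04 (SE 0.09) and 0.18 (SE 0.10) in the 35 libraries, and Bckdk, the kinase that switches it off, 0.06 (SE 0.10) and 0.07 (SE 0.11). Mccc1, a subunit of the leucine enzyme methylcrotonyl-CoA carboxylase, was at 53.7, 45.3, 43.2 and 65.2 CPM in knockout chow A to D and at 44.7 to 78.5 CPM (median 63.1) in knockout Western livers. It rose there by 0.44 (SE 0.15, edgeR adjusted p = 0.0377), a call kept in 23 of 35 leave-one-out fits, and gave 0.35 (SE 0.13, edgeR adjusted p = 0.0887) in wildtype. The knockout call of Mccc1 ended without knockout chow B or C, among other libraries. Ivd, the leucine enzyme before it, was the one member of the role with negative values, -0.29 (SE 0.12, edgeR adjusted p = 0.114) and -0.17 (SE 0.13, edgeR adjusted p = 0.387).

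Each of the 4 libraries was placed between the diets by the 17 members with a diet call in the 35 libraries. Wildtype Western A was nearer to the chow median for 16 of 17, and knockout Western M for 13. Wildtype chow A and knockout chow D were nearer to the Western diet median for 13 each. These 17 were chosen without those libraries, but the libraries were chosen on other diet genes of the same livers.

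Single mice stood high or low for many members at once. Knockout Western E had the highest level of its group for 21 of 47 members, and knockout Western D lay above the group median for 44. Knockout Western G and O were above the median for 6 and 7 members, and wildtype Western N for 7. Wildtype Western J was above it for 40 and had the highest level for 13. Among the 5 wildtype chow livers, B had the highest level for 20 members and A the lowest for 24. The same counts over all genes are not given here, so these traits are not shown to be particular to the members. The mean log2 CPM of 24 acute phase genes differed among these livers too, at 9.27 in knockout Western E, 7.25 in D, 8.22 in G, 7.22 in O, 8.97 in wildtype Western N and 7.14 in J, and its part in the members' levels was not tested. The median coefficient of variation of a member was 15.6% in wildtype chow, 15.8% in knockout chow, 15.0% in wildtype Western and 18.5% in knockout Western livers.

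**Figure D4:**
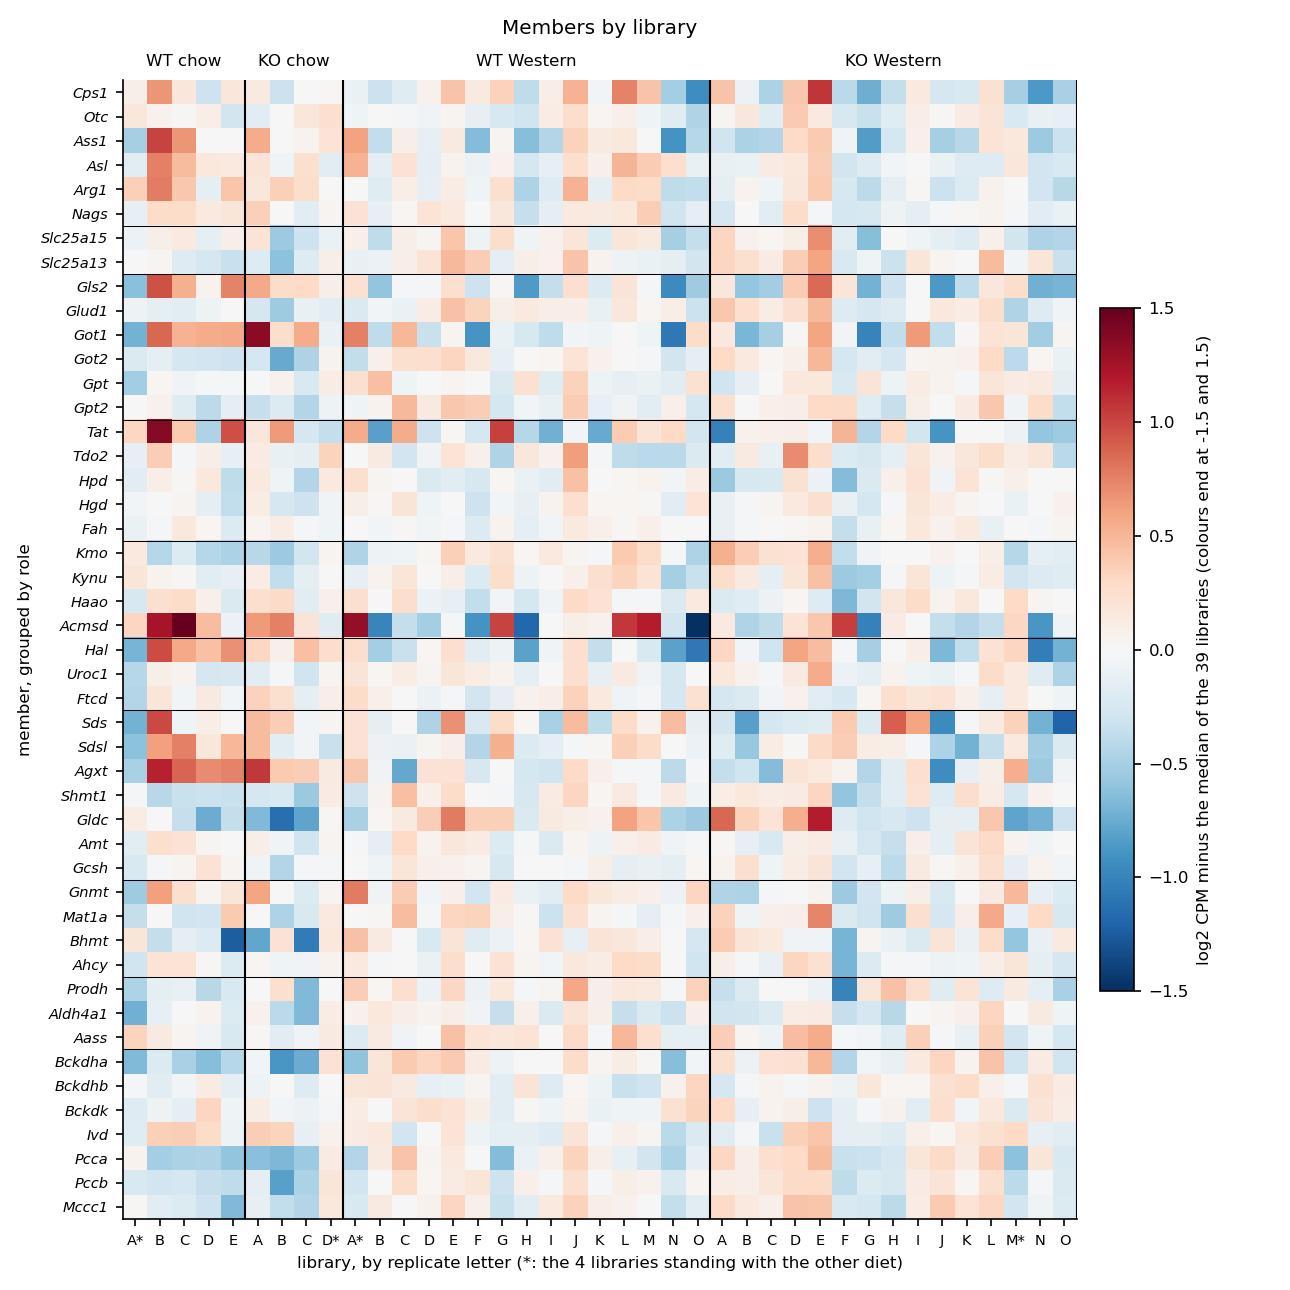
Log2 CPM of each member (rows, grouped by role) in each of the 39 libraries (columns, by group and letter), minus the median over all 39 libraries, from blue (lower) to red (higher), with colours ending at -1.5 and 1.5. Stars mark wildtype chow A, knockout chow D, wildtype Western A and knockout Western M. Columns such as knockout Western E, red for many members, show levels that moved together within a mouse.

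Per kilobase of exon the members spanned a wide range of levels. Gnmt was the highest in wildtype chow livers, at 1433 ± 391 CPM per kilobase (SD, n = 5), followed by Hpd at 1132 ± 165, Tat at 764 ± 350, Ass1 at 731 ± 305 and Arg1 at 590 ± 125. Each neighbouring pair among these 5 differed by less than the sum of the SDs. Mccc1 was the lowest at 4.51 ± 0.740, beside Bckdk at 4.90 ± 0.753. The lengths join all annotated exons of a gene, 10.95 kilobases for Mccc1, so this order depends on the annotation. In CPM Mccc1, at 37.0 to 59.1 in wildtype chow livers, lay above Bckdk at 16.0 to 22.9. Gnmt and Hpd were also the first and second on Western diet, at 1408 ± 280 and 1176 ± 151 (SD, n = 15). Agxt moved from position 14 to 18 and Got1 from 23 to 33.

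Related genes of amino acid breakdown outside the list gave diet calls as well. The list holds 57 genes, of which 54 were tested in the 35 libraries. There 4 rose (7.41%) and 5 fell (9.26%) in wildtype, beside 4.26% and 4.4% of all genes. In knockout 12 rose (22.2%) and 5 fell (9.26%), beside 9.69% and 7.5%. Cth, which makes cysteine from cystathionine, fell by 1.19 in wildtype and by 0.81 in knockout (edgeR adjusted p = 4.89e-07 and 0.00114). In wildtype Cth also passed with all 39 libraries, at -0.92 (SE 0.19, edgeR adjusted p = 0.0198). Gcat, which splits the threonine product aminoketobutyrate into glycine, fell by 1.05 and by 1.08, and Upb1 of pyrimidine and beta-alanine breakdown fell by 0.37 and by 0.34. Glul, the glutamine synthetase of pericentral hepatocytes, passed in wildtype in both fits, at 0.46 (SE 0.12, edgeR adjusted p = 0.0498) with 39 libraries. Amdhd1, the histidine enzyme after Uroc1, and Qdpr, which recycles tetrahydrobiopterin, fell in wildtype by 0.55 and by 0.49.

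In knockout the rises included partners of members described above. Mccc2, the other subunit of methylcrotonyl-CoA carboxylase, rose by 0.49 and Mut, the mutase after propionyl-CoA carboxylase, by 0.57. Hibch and Aldh6a1 of valine breakdown rose by 0.59 and by 0.47, and Acat1, which ends the isoleucine path, by 0.60. Dld, shared by the branched-chain dehydrogenase and the glycine cleavage system, rose by 0.47, and Dmgdh and Sardh, which strip methyl groups from dimethylglycine and sarcosine, rose by 0.68 and by 0.55. Kyat1, an aminotransferase for kynurenine and glutamine, and Pipox, which oxidises pipecolate and sarcosine, fell by 0.74 and by 0.36. Grhpr, which reduces glyoxylate, rose in wildtype by 0.34 and in knockout by 0.56.

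Of 19 amino acid transporters tested in the 35 libraries, 2 rose in both genotypes: Slc6a9, a glycine transporter, by 0.96 and by 0.95, and Slc1a4, a carrier of alanine, serine and cysteine, by 1.04 and by 1.35. Slc3a2, the shared heavy chain of several carriers, fell in wildtype by 0.32. Slc6a9 passed in wildtype with all 39 libraries too (0.87, SE 0.20, edgeR adjusted p = 0.0274). Among 18 regulators Creb3l3, a liver factor of the fasting response, rose by 0.31 and by 0.27, and Atf4, which drives amino acid response genes, fell by 0.47 and by 0.57. Sesn2 and Foxo1 rose in knockout by 0.69 and by 0.35. Among 10 fasting and gluconeogenic genes 2 rose in wildtype and 3 in knockout, including Cpt1a by 0.82 and by 0.95 and, in knockout, Fbp1 by 0.71. The largest values of that list, 1.83 and 2.40 for the hormone Fgf21, did not pass (edgeR adjusted p = 0.153 and 0.0679). In wildtype 10.5% of the transporters, 5.56% of the regulators and 20% of the fasting genes rose, beside 4.26% of all genes. In knockout 10.5%, 16.7% and 30% rose, beside 9.69%. In wildtype 5.26%, 5.56% and 0% fell, beside 4.4%, and in knockout 0%, 5.56% and 0%, beside 7.5%.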

How the data were processed

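Paired-end RNA-seq libraries (NEBNext Ultra) came from snap-frozen liver, per the labels' protocols. The values are raw counts per gene that the authors deposited, made with STAR 2.7.8a on GRCm39 and featureCounts 2.0, with FastQC and MultiQC, per the submitters' processing notes. The annotation release and strand setting are not given in the sources used here, so genes that overlap others are uncertain. Of 55416 identifiers, 52083 matched a symbol (GENCODE M21, GRCm38), holding 99.4% of counts. Exon lengths come from that annotation and promoter windows from RefSeq GRCm38.p6, where 38 of 47 members matched.

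Genes were kept by filterByExpr by group (minimum count 10, total 15) and tested with the quasi-likelihood test of edgeR 4.0.16 (TMM scaling, robust fit, a term per group over 39 libraries). The 5 comparisons used a Benjamini-Hochberg adjusted p of 0.05 over all genes kept. Standard errors follow from the fold change and its F statistic. CPM are TMM-scaled, and log2 CPM used a prior count of 2. Members, lists and the 4 libraries were chosen with earlier results of these data known. All members with a call, the 6 urea cycle genes and the 3 smallest p-values per comparison were given in full. Tried alternatives were RLE factors, DESeq2 1.42.0, limma 3.58.1 (voom with quality weights), no filter, a block for the replicate letter, a covariate for library number, fits of the compared groups alone, and leaving out libraries. Tested on simulated data for the wildtype diet comparison (14957 genes), the fit recovered 98% of genes raised by 1 on the log2 scale. The simulation gave all genes the same spread and held no libraries at the level of the other diet. Most diet values of the members were smaller than 1, so this share does not give the power for them. The genes of the scale between the diets had a call and at least a 2-fold change in the 35 libraries. No 2 libraries of a group agreed within sampling noise (lowest chi-square per gene 3.67, wildtype Western L and M). Other close pairs lay at 9.28 (knockout Western B and C) and 10.9 (wildtype Western D and E). Why wildtype Western L and M were closer was not tested. Results of some genes in the lists are not reported here.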

Additional observations from a re-analysis of the deposited data

Results flagged for a closer look

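In the groups of 4 and 5 chow livers, 94 member and group pairs were examined for a liver far from the others on the log2 scale by Dixon's test, which flags about 1 in 20 by chance, and 8 were found. The values are in CPM. In wildtype chow A, Got1 was at 81.2 where the other 4 livers had 191 to 241, Agxt at 147 against 338 to 459, and Gpt at 330 against 454 to 480. Shmt1 was at 245 there against 185 to 199, and Pcca at 92.2 against 59.2 to 64.6. In knockout chow D, Pcca was at 97.0 where the other 3 livers had 55.7 to 61.0. These 6 values belong to libraries that stood with the other diet. For Gpt, though, 330 was also below every Western diet liver, the lowest of which was knockout Western A at 384. Gcsh was at 62.4 in knockout chow B against 81.3 to 83.4, and Bckdk at 22.9 in wildtype chow D against 16.0 to 17.5.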

How the results depend on the processing

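The counts of members with a diet call depended on the libraries and tools. As labelled 0 members were higher and 1 lower in wildtype, and 0 and 0 in knockout. DESeq2 gave 1 higher and 2 lower in wildtype (3.37% of all genes called), limma voom 5 and 4 in wildtype (6.83%) and 4 and 2 in knockout (5.36%), and a fit of only the groups compared 2 higher in wildtype (Bckdha and Prodh; 1.98%), beside 1.39% and 0.00654% in the edgeR fit of 39 libraries. The 1 lower call in wildtype became 0 with no filter, with library number as a covariate and with the replicate block. Without the 4 libraries there were 5 and 6 in wildtype and 11 and 2 in knockout. Leaving out 1 library of 39 gave 0 to 1 higher and 0 to 3 lower in wildtype, and 0 to 5 and 0 to 1 in knockout. Leaving out 1 of the 35, an alternative added after seeing the data, gave 1 to 6 and 2 to 7 in wildtype, and 2 to 12 and 0 to 2 in knockout. Genotype and interaction counts were 0 in every one of these fits.

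The replicate letters did not pair the samples (mean correlation -0.01 over 15 Western diet pairs, 2 best with their own letter). With the replicate block the diet value of Cps1 turned to 0.0233 in wildtype and 0.0091 in knockout, and that of Otc to 0.0026 and 0.0245. The library number covariate turned Cps1 to 0.0461 and 0.0495. Without the 4 libraries Cps1 was 0.0555 and Otc 0.0343 in knockout. Leaving out 1 library gave -0.209 to 0.0394 for Cps1 in wildtype, -0.140 to 0.0487 in knockout, and -0.144 to 0.0097 for Otc in knockout. Of 2065 alternative values for 44 pairs of member and comparison, 1978 kept direction and call, 53 gained and 13 lost the call, and 21 turned. In the edgeR fit of 39 libraries only 1 of these pairs had a call, Agxt in wildtype. Most of the 1978 are therefore values without a call that stayed without one, and all 13 losses were of Agxt. The causes of these changes were not tested.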

Other observations

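Markers of other liver cell types were present at low levels next to the members. Summed over each list, the 39 livers held 66.1 to 388 CPM of 6 Kupffer cell markers, 147 to 367 CPM of 6 sinusoidal endothelium markers and 165 to 560 CPM of 6 stellate cell markers. They held 47.7 to 105 CPM of 5 bile duct cell markers, 1.6 to 36.4 CPM of 5 neutrophil markers and 1.5 to 7.1 CPM of 5 lymphocyte markers. Of these, Cxcr2, Retnlg, S100a8, S100a9, Cd3d and Ms4a1 were at 0 in some libraries. Acute phase genes, 24 in all, summed to between 16549 and 87129 CPM, highest in wildtype Western G. In the 35 libraries 2 of them, Orm3 and Serpina3m, rose in wildtype by 2.57 and by 0.88, and 2, Crp and Serpina3m, rose in knockout by 0.43 and by 1.11 (edgeR). That is 8.33% of the 24 in each genotype, beside 4.26% of all genes in wildtype and 9.69% in knockout.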
